A study of Mus musculus with 3 samples.

Results

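Listed c-FOS peaks were collected around 8 mouse genes that set cell fate in the epidermis, the transcription factor genes Trp63, Sox9, Klf5, Klf4, Ovol1, Grhl3 and Zfp750 and the receptor gene Notch1. Each gene was given a fixed window of mm9, and a peak was counted for a gene when its midpoint lay in that window. The place of the windows relative to gene boundaries on mm9 was not checked, so a count does not assign a peak to the gene. The 8 windows spanned 1.18 Mb and held 35 of the 15011 peaks in the list. Peaks were found in 7 of the windows, and the Klf5 window held 0.

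The data came from ASZ001, an established murine basal cell carcinoma line, in which c-FOS was mapped by chromatin immunoprecipitation and sequencing (ChIP-seq) during an induced change from basal to squamous cell carcinoma. The cells had the genotype RasV12_TGFbR1kd, which joins RasV12, an activated Ras, to knockdown of TGFbR1, a receptor for TGF-beta, by an shRNA. They were collected 6 days after treatment with Dox and 4OHT. There were 2 ChIP samples, made with a rabbit monoclonal antibody to c-FOS, and 1 input sample with no antibody. Every sample carried the same genotype and treatment, so the list has no uninduced or Ras-free counterpart. The labels do not say whether the samples came from separate cultures. The authors' list combined the ChIP samples and gave positions alone. The depth behind a peak is therefore unknown and no count below carries a replicate error or a test.

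c-FOS is a subunit of AP-1, a dimer with a JUN-family protein. AP-1 binds sites that fall within the broad pattern TGANTCA and is known for its response to Ras signalling. Trp63 encodes p63, which keeps basal cells of stratified epithelia in their lineage, and Sox9 encodes a factor of hair follicle stem cells that basal cell carcinomas also express. Klf4, Ovol1, Grhl3 and Zfp750 act when keratinocytes leave the basal layer and differentiate, and signalling through the receptor Notch1 promotes that commitment. Klf5 is a zinc finger factor of proliferating epithelial cells.

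RefSeq promoter sequences matched 3 of the 8 genes, Klf4, Grhl3 and Notch1. They are shown because they are the sequence next to the start of genes whose windows held peaks. Each is the 250 bases before the annotated start, 5′ to 3′ on the gene's minus strand of GRCm38.p6, at chr4:55532476-55532725 for Klf4, chr4:135573633-135573882 for Grhl3 and chr2:26503823-26504072 for Notch1. Those positions are of another build than the mm9 peaks and cannot be subtracted from them, so whether a peak covers one of these promoters was not determined.
Klf4: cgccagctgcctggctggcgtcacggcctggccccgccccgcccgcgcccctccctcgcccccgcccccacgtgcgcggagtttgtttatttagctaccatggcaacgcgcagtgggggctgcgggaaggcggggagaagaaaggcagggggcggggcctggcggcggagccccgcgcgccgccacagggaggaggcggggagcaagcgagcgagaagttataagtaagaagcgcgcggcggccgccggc
Grhl3: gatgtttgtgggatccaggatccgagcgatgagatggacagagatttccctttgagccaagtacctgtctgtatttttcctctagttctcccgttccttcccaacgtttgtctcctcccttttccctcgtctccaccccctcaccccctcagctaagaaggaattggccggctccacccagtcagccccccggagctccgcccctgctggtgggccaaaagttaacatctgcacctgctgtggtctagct
Notch1: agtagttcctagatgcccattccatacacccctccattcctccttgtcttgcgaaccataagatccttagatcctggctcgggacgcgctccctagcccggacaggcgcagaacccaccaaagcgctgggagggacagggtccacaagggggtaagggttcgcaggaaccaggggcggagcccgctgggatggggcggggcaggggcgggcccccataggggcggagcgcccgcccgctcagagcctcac
Neither the AP-1 letters TGANTCA nor the related letters TGACGTCA occurred in any of the 3, and so no base is in capitals. Both motifs read the same on either strand, and a run of TGACGTCA does not count as TGANTCA. Among 32851 promoters of the same length in the table, 6.75% held TGANTCA, with any base allowed at N, and 1.55% held TGACGTCA. The Klf4 promoter was 74.0% G and C with 32 CpG dinucleotides, the Notch1 promoter 66.0% with 16, and the Grhl3 promoter 56.0% with 8, beside a median of 52.4% and 6 CpG over all promoters. The absence of these letters speaks of the printed bases alone.

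The windows differed in length, so counts were also given per Mb and set beside windows of the same width laid end to end on chromosomes 1 to 19 and X. Together the gene windows held 29.7 peaks per Mb, against 5.69 per Mb on those chromosomes, a ratio of 5.22. They made up 0.0447% of that length and held 0.233% of the list. The ratio does not allow for differences between chromosomes. Among those with a gene window, density ran from 0.871 per Mb on chromosome 14 (Klf5) to 15.0 on chromosome 11 (Sox9 and Zfp750). Same-width windows include assembly gaps, where no peak can be listed, and the gene content of these windows was not analysed here. Their shares below are a background to read each count against and not a test.

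**Figure D1:**
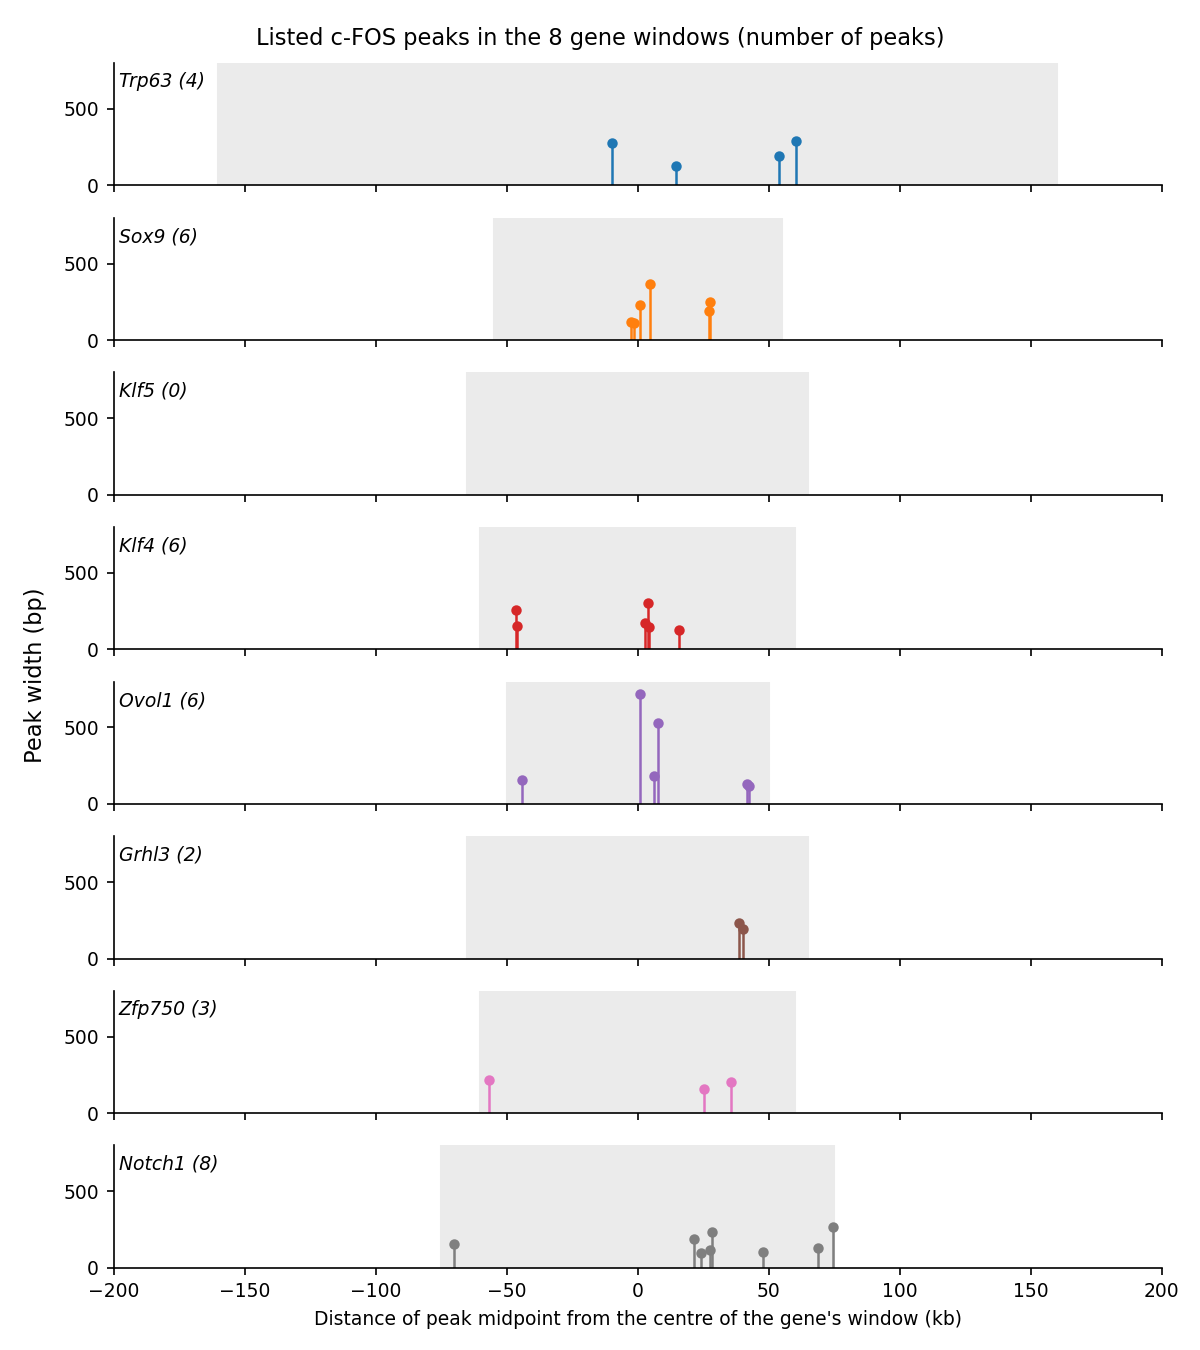
Each panel is 1 gene, with its number of listed c-FOS peaks in brackets. The x axis is the distance of the peak midpoint from the centre of the gene's window in kb, the height is the peak's width in bp, and grey marks the window. The 6 Sox9 peaks lie within 30.5 kb and the 8 Notch1 peaks over 145 kb, the tallest marker is the 718 bp peak of Ovol1, and the Klf5 panel is empty.

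The factors of the basal and follicular lineage gave 3 different pictures. The Trp63 window, on chromosome 16 from 25.63 to 25.95 Mb, held 4 peaks, or 12.5 per Mb against 4.94 per Mb on the whole chromosome. It was the longest window, at 320 kb, and of 8235 windows of that width 44.3% held at least 1 peak and 16.4% held at least 4. The Trp63 count was thus not rare among windows of its length.

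The 4 Trp63 peaks lay between 25780099 and 25850381, in 70.3 kb of the 320. They measured 274 bp (from 25780099), 126 bp (from 25804484), 189 bp (from 25843806) and 288 bp (from 25850094). The last pair was separated by 6099 bp and the other gaps were 24.1 and 39.2 kb, so none had a neighbour within 1 kb. The list held nothing for 353 kb before the first of them and for 297 kb after the last, beside a median gap of 45.9 kb between neighbours on chromosome 16, and 5 further peaks lay in the 1 Mb centred on the window. The coding genes on either side of Trp63 in RefSeq are Tprg and P3h2.

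The Sox9 window, on chromosome 11 from 112.59 to 112.70 Mb, held 6 peaks in 110 kb, or 54.5 per Mb. Chromosome 11 was itself dense at 15.0 per Mb, and the window exceeded it 3.63-fold. Among 23980 windows of 110 kb, 26.7% held at least 1 peak and 2.02% held at least 6, while on chromosome 11 alone 8.67% held at least 6.

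The Sox9 peaks formed a group of 4 and a pair. The group spanned 7.61 kb, from 112642431 to 112650035, and its widths in order were 116, 110, 230 and 369 bp, with gaps of 1106, 1886 and 3788 bp. The pair followed 22.0 kb later, with peaks of 187 bp (from 112672018) and 249 bp (from 112672634) that were 429 bp apart. No other peak was listed for 159 kb before the group or for 177 kb after the pair. The 369 bp peak was among the wider ones, with 5.86% of the list at least as wide. The neighbouring coding genes in RefSeq are Gm11677, a predicted gene, and Slc39a11, a zinc transporter gene.

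The Klf5 window, on chromosome 14 from 99.64 to 99.77 Mb, held no listed peak. The nearest were a 283 bp peak ending at 87816459, with its midpoint 11823.7 kb before the window, and a 98 bp peak starting at 102053073, with its midpoint 2283.1 kb after it. The Klf5 window thus fell inside an empty stretch of 14.2 Mb, beside a median gap of 309 kb between neighbours on chromosome 14. Of 20291 windows of 130 kb on chromosomes 1 to 19 and X, 29.3% held at least 1 peak, so an empty window is the usual case, and on chromosome 14 alone 91.5% of such windows were empty. Chromosome 14 had 0.871 peaks per Mb over its whole length. Read coverage of the input in this stretch was not analysed here, and what the empty window reflects was not tested.

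**Figure D2:**
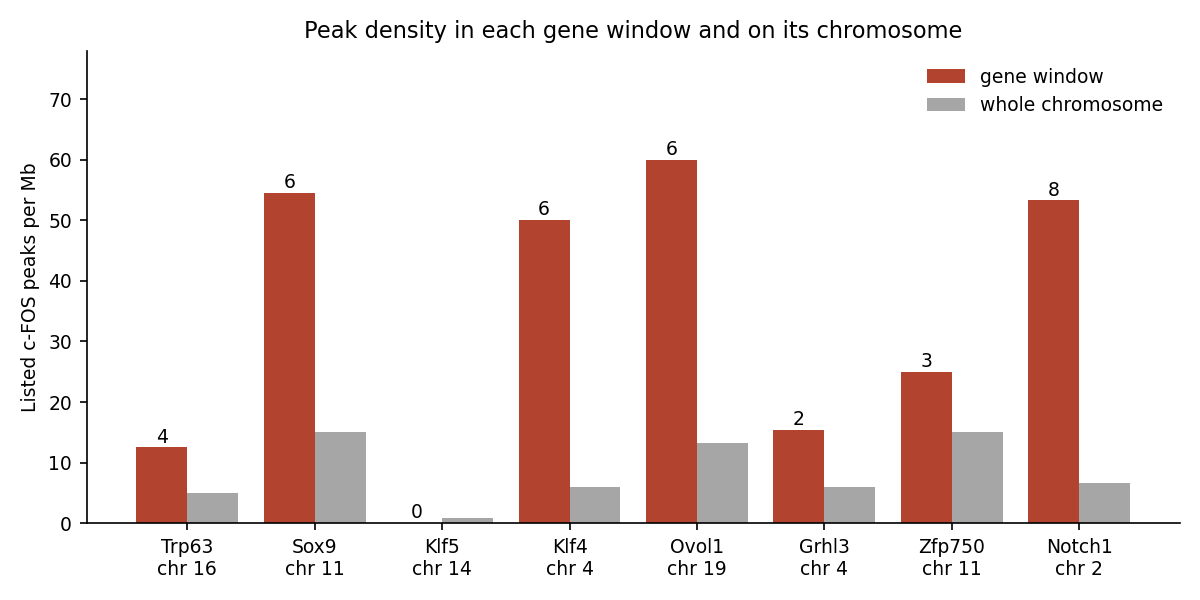
Bars give listed c-FOS peaks per Mb in each gene window (red, with the number of peaks above) and on its whole chromosome (grey). Ovol1, Sox9, Notch1 and Klf4 reach 50 to 60.0 per Mb, Trp63, Grhl3 and Zfp750 lie between 12.5 and 25, and Klf5 has 0.

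Among the differentiation factors, Klf4 and Ovol1 had 6 peaks each, Zfp750 had 3 and Grhl3 had 2. The Klf4 window, on chromosome 4 from 55.48 to 55.60 Mb, held 50 peaks per Mb against 5.92 per Mb on the chromosome, a ratio of 8.44. Merging peaks within 1 kb left 3 regions in this window. Of 21981 windows of 120 kb, 28.2% held at least 1 peak and 2.27% held at least 6. On chromosome 4 alone the share with at least 6 was 1.54%.

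Of the 6 Klf4 peaks, 5 had a neighbour within 1 kb. The compact part was a group of 3 peaks in 1717 bp, from 55542810 to 55544526, near the centre of the window, with widths of 169, 300 and 145 bp and gaps of 809 and 294 bp. It was the only group of 3 linked by gaps of at most 1 kb in the 8 windows. A pair lay 48.8 kb before it, with peaks of 254 bp (from 55493332) and 149 bp (from 55493907), 321 bp apart. A single 128 bp peak (from 55555649) lay 11.1 kb after the group. The Klf4 peaks had 130 kb without a peak before them and 108 kb after them, and the coding neighbours in RefSeq are Rad23b and Actl7b.

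The Ovol1 window, on chromosome 19 from 5.51 to 5.61 Mb, had 60.0 peaks per Mb in 100 kb, the highest density in the windows as given. Of 26378 windows of that width, 25.4% held at least 1 peak and 1.61% held at least 6. Its surroundings were also rich: the 1 Mb centred on the window held 89 peaks, 83 of them outside the window. On chromosome 19 alone, at 13.2 peaks per Mb, 5.55% of windows held at least 6.

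The 2 peaks over 500 bp in the 8 windows were both in the Ovol1 window, whose other 4 measured 118 to 181 bp. Its median of 168.5 bp was below those of Trp63, Grhl3, Sox9 and Zfp750. One, from 5560421 to 5561138, measured 718 bp and lay 0.779 kb from the window's centre, and 0.300% of the list was at least as wide. The other, from 5567401 to 5567931, measured 531 bp, with 1.27% of the list at least as wide. A 181 bp peak (from 5565972) lay between them, and the 3 covered 1430 bp of a 7.51 kb group. The remaining Ovol1 peaks were single at 5515713 (156 bp) and paired at 5601786 (133 bp) and 5602337 (118 bp), 418 bp apart. The next listed peak had its midpoint 5.17 kb past the window's end, and the coding neighbours in RefSeq are 1700020D05Rik and Ap5b1. To which gene any peak of the Ovol1 window belongs was not determined.

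The Grhl3 window, on chromosome 4 from 135.05 to 135.18 Mb, held 2 peaks, or 15.4 per Mb. Of the 20291 windows of 130 kb, 16.1% held at least 2, so the count was not unusual for the list. The peaks measured 230 bp (from 135153624) and 191 bp (from 135155007), stood 1153 bp apart, and lay 38.7 and 40.1 kb above the window's centre. They were isolated as a pair, with 244 kb free of listed peaks before them and 129 kb after them. The coding neighbours of Grhl3 in RefSeq are Stpg1 and Ifnlr1, which encodes a subunit of an interferon receptor.

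The Zfp750 window, on chromosome 11 from 121.31 to 121.43 Mb, held 3 peaks, or 25 per Mb, 1.66 times the density of its chromosome. At least 3 peaks were held by 8.64% of 120 kb windows over the chromosomes and by 24.9% of those on chromosome 11. The peaks measured 214 bp (from 121313146), 158 bp (from 121395067) and 207 bp (from 121405331), and the gaps between them were 81.7 and 10.1 kb. Zfp750 was the only gene with a peak in its window at which no peak had a neighbour within 10 kb. That rests on the limit, since the smaller gap was 10106 bp. The first of the 3 had its midpoint 3.25 kb inside the window's edge, far from the others. Tbcd, a tubulin-folding cofactor gene, and B3gntl1 are the coding neighbours in RefSeq. To which gene the 3 peaks belong was not determined.

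**Figure D3:**
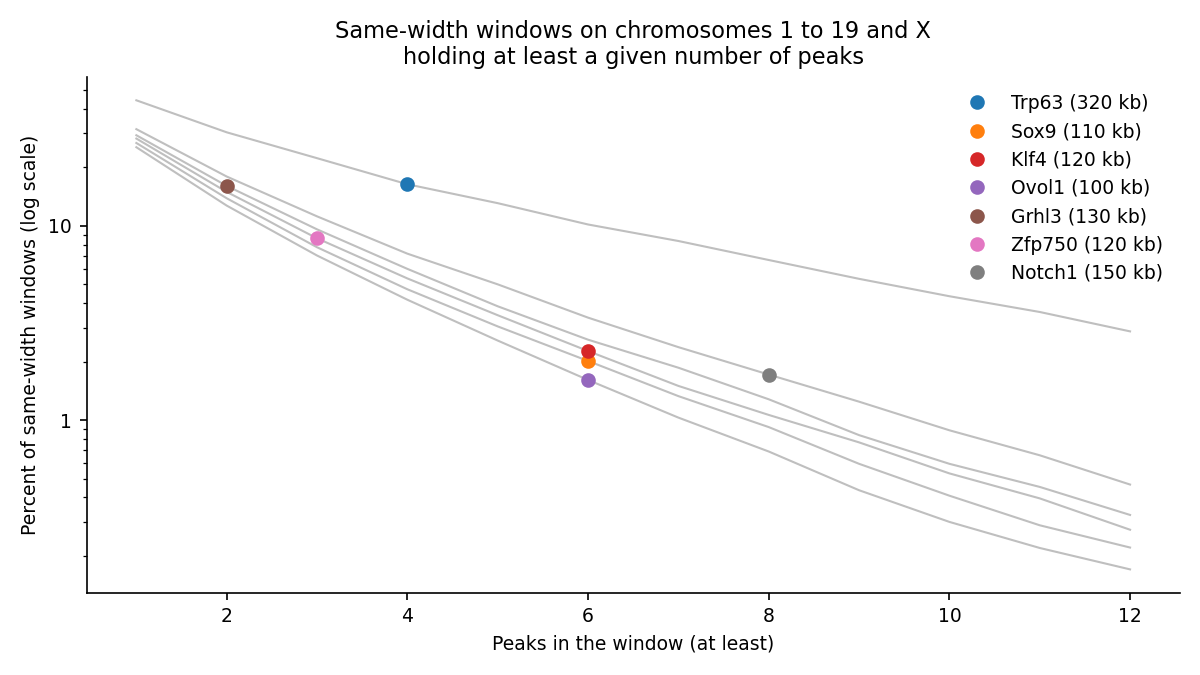
Grey lines give the percent of same-width windows on chromosomes 1 to 19 and X (log scale) that hold at least the number of peaks on the x axis, 1 line for each window width. Coloured points are the genes at their own count and width; Ovol1, Notch1, Sox9 and Klf4 lie between 1.61 and 2.27%, Zfp750 at 8.64%, Grhl3 at 16.1% and Trp63 at 16.4%.

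The receptor gene Notch1 had 8 peaks, more than any other gene in the windows as given, though not in wider or narrower windows or among wide peaks alone. Its window, on chromosome 2 from 26.26 to 26.41 Mb, held 8 in 150 kb, or 53.3 per Mb against 6.58 per Mb on the chromosome, a ratio of 8.10. Of 17582 windows of 150 kb, 31.5% held at least 1 peak and 1.72% held at least 8, and on chromosome 2 alone 1.82% did.

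The Notch1 peaks lay mostly in the upper part of the window, 7 above its centre and 1 below. A group of 4 spanned 6.89 kb, from 26356431 to 26363318, with widths of 186, 98, 119 and 234 bp and gaps of 2480, 3291 and 480 bp. A single peak followed at 26382603 (102 bp), and then a pair at 26403667 (131 bp) and 26409596 (264 bp), 5798 bp apart. The first peak of the window stood at 26264664 (154 bp), 91.6 kb before the group. The Notch1 peaks had a median width of 142.5 bp, beside 158 bp for the whole list. The narrowest width in the list, 98 bp, was found in 1 of them and in 10.8% of the peaks outside the gene windows.

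The edge of the Notch1 window cut through a run of peaks, and distances from an edge are given here to the midpoint of a peak. The last peak inside lay 0.273 kb from the edge and the first outside, a 150 bp peak from 26412623, lay 2.70 kb beyond it. On the other side the first inside lay 4.74 kb from the edge and the last outside, a 184 bp peak ending at 26247983, lay 12.1 kb before it. In RefSeq the coding neighbours are Sec16a and Egfl7, a gene of endothelial cells. To which gene any peak of the Notch1 window belongs was not determined. For Ovol1 the nearest outside peaks were 19.6 and 5.17 kb from the edges, and for Zfp750 53.8 and 134 kb. For Klf4, Grhl3, Sox9 and Trp63 the nearest outside peak on either side was 64.4 to 203 kb away, so small shifts of those windows would add none.

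**Figure D4:**
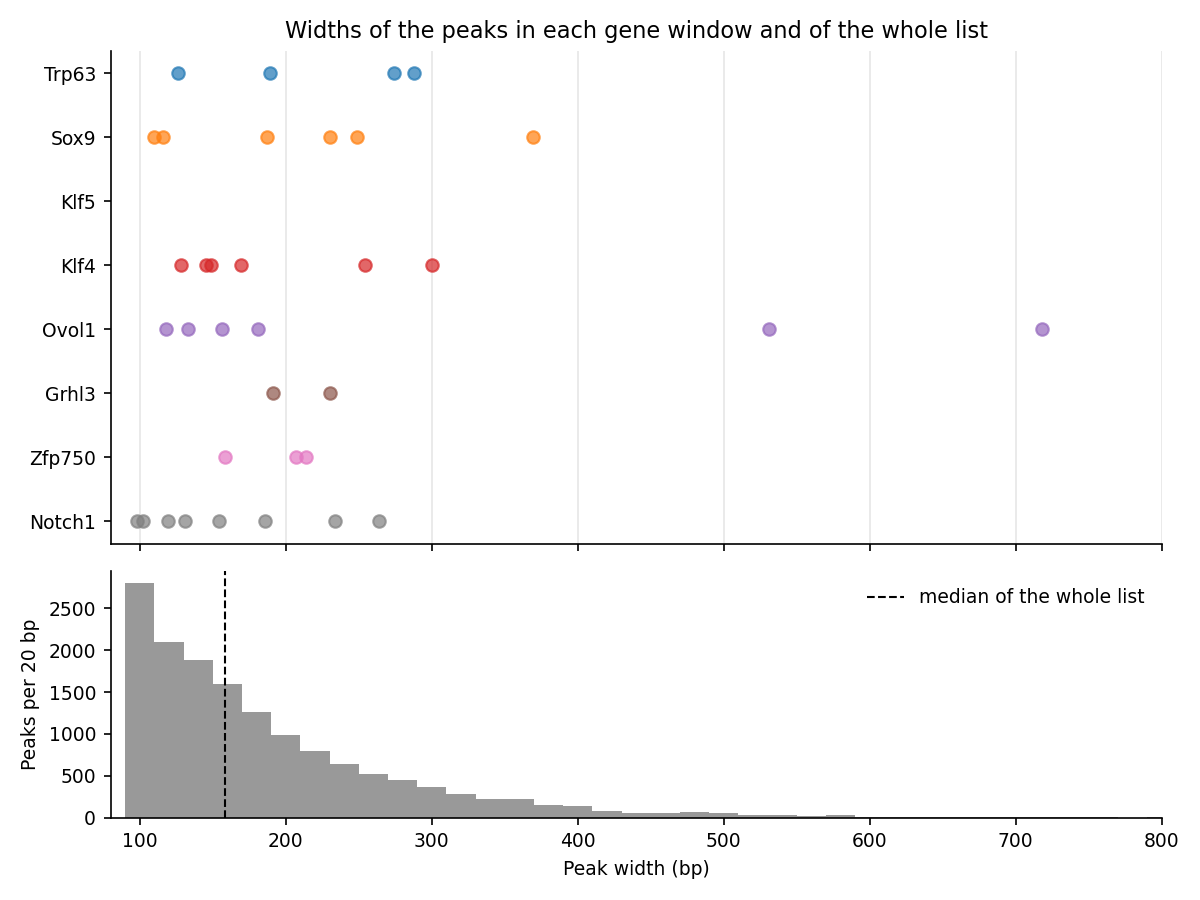
Upper panel, width in bp of every peak in each gene window, 1 point a peak. Lower panel, the widths of the whole list in bins of 20 bp, shown up to 800 bp, with its median of 158 bp dashed. In the upper panel, all peaks but the Ovol1 peaks of 531 and 718 bp lie between 98 and 369 bp.

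As a set, the 35 peaks had a median width of 186 bp (95% interval of the median 149 to 230), against 158 bp (157 to 160) for the 14976 peaks elsewhere. The difference in median width was not tested, because peaks of 1 combined list are not replicates. Widths were above the median of the list in 20 of the 35 (57.1%, Wilson 95% interval 40.9 to 72.0%). The narrowest listed width was found in 1 of 35 (2.86%, 0.506 to 14.5%), against 10.8% of the rest (10.3 to 11.3%), and widths over 500 bp in 2 of 35 (5.71%, 1.58 to 18.6%), against 1.74% (1.55 to 1.97%). These intervals reflect counting error alone and take every peak as independent, although neighbours are not. They cannot serve to compare the gene windows with the rest.

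Close neighbours were counted for the same peaks. A neighbour within 10 kb was listed for 26 of 35 (74.3%, Wilson 95% interval 57.9 to 85.8%), against 48.6% of the rest (47.8 to 49.4%), and within 1 kb for 11 of 35 (31.4%, 18.6 to 48.0%), against 24.8% (24.2 to 25.5%). All 6 Sox9 peaks, 6 of 8 at Notch1, 5 of 6 at Ovol1 and 5 of 6 at Klf4 had one within 10 kb, as did both Grhl3 peaks, 2 of 4 at Trp63 and 0 of 3 at Zfp750. The difference was not tested, since windows with several peaks contribute several neighbours by their count alone. The intervals take every peak as independent, although a close pair gives both of its peaks a neighbour. They are therefore too narrow and cannot serve to compare the shares. There were 6 adjacent pairs with gaps of at most 1 kb, and their midpoints lay 516.5 to 1043.5 bp apart with a median of 595 bp, beside a median of 471 bp and quartiles of 333 and 696 bp over the 2078 such pairs of the whole list.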

How the data were processed

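Alignment by the authors used Bowtie2 and the build mm9, and peak calling used MACS2, per the submitters' processing notes. Their versions, the threshold for a peak and the way ChIP and input samples were combined are not given in those notes. The deposited list holds chromosome, start and end of each peak and no other measure. Groups come from the sample titles. None of the listed peaks lay beyond an mm9 chromosome end (0, against 55 beyond mm10 ends; lengths from GenomeInfoDb 1.38.1). Coordinates are printed 1-based on mm9.

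Peaks were assigned to gene windows by midpoint, and widths, gaps, groups and same-width windows were computed in Python 3.11.15 (scipy 1.17.1, pandas 2.3.3, numpy 2.4.6, matplotlib 3.10.9). Shares carry Wilson 95% intervals and medians carry binomial intervals from ordered values. No test was run, because 1 combined list has no replicates. Alternatives changed the windows, merged close peaks, dropped narrow peaks or changed the background windows. Counting was tested on simulated data. The genes, windows and quantities were chosen with earlier results of these data known. All 8 genes are named. Neighbouring genes and promoters come from RefSeq on GRCm38.p6 and serve as names and sequences only. An mm9 genome and annotation were not used here, so exons, introns, peak sequences and further epidermal or Notch pathway genes were not analysed here.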

Additional observations from a re-analysis of the deposited data

How the results depend on the processing

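No paired analysis was possible because the 1 combined list keeps no replicate apart, and leaving out a replicate was not possible for the same reason. Peaks were found in 7 of 8 windows under each alternative count except with windows narrowed by 25% at each end, which left 6, Grhl3 having lost both of its peaks. In the main count, 25.4% (100 kb) to 44.3% (320 kb) of same-width windows held at least 1 peak. The total of 35 became 21 with the narrowed windows, 20 among peaks wider than the median of the list and 19 after merging within 10 kb, each with fewer bases or regions to count by construction. It was 50 with windows widened by 50 kb on each side, 16 of them at Ovol1 and 13 at Notch1. After merging within 1 kb it was 29, with 3 regions at Klf4 and 7 at Notch1. Notch1 had the highest count in the windows as given, but Sox9 held 5 and Notch1 4 in the narrowed windows, and Sox9 4 and Notch1 3 among the wider peaks. The share with a neighbour was 74.3% at 10 kb in place of 31.4% at 1 kb, by construction.

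Leaving out windows with no peak within 1 Mb raised the share of same-width windows that reach a gene's count to 19.9% for Trp63, 2.50% for Sox9, 2.80% for Klf4, 1.99% for Ovol1, 19.8% for Grhl3, 10.7% for Zfp750 and 2.11% for Notch1. On the gene's own chromosome alone it was 8.67% for Sox9, 5.55% for Ovol1, 24.9% for Zfp750, 18.5% for Grhl3 and 1.54% for Klf4. Shifting the windows by 50% of a width moved none of these 7 shares outside its Wilson interval. The cause of the differences was not tested. Width was the only size that the list gave, and whether it follows peak strength was not analysed here. Without depth the sensitivity of the list is unknown.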
